A study of Homo sapiens with 3 samples.

Results

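The interleukin-1 receptor antagonist gene IL1RN and 9 further genes of the interleukin-1 system were followed in LNCaP cells, an established line of human prostate cancer with luminal features. The members were all probe sets whose only annotated gene symbol was IL1RN, the ligand genes IL1A and IL1B, the receptor genes IL1R1, IL1R2, IL1RAP and SIGIRR, or the signalling genes MYD88, IRAK1 and IRAK4. This gave 20 of 49388 probe sets, from 9 of the 10 genes, and IRAK4 had no annotated probe set among those used. The group was picked because the difference of IL1RN from the control was already known from these arrays, so the IL1RN values are a description and were not tested.

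The 3 arrays held RNA from LNCaP cells 48 h after transfection, by lipid carrier, with 75 nM of a negative control siRNA, of HOXD-AS1 siRNA 1 or of HOXD-AS1 siRNA 2. HOXD-AS1 is a long non-coding RNA of the HOXD region, and the study asked which genes differ from the control with both of its siRNAs. Each group held 1 array, so no value below has a replicate error, no test was possible, and both differences share the same control array. The source labels name the cells LNCaP for the control, LNCaP-Bic for siRNA 1 and LNCaP-AI for siRNA 2, although the cell line label is LNCaP throughout, so any difference between these cells and the effect of an siRNA cannot be told apart. The knockdown was not analysed here, since 0 probe sets carried HAGLR, which is the present symbol of this RNA. The labels give an inhibition rate of 1 for the control, 0.23 for siRNA 1 and 0.25 for siRNA 2, which was not checked here. The label for the siRNA target position names the coding sequence of WDR5 and not HOXD-AS1, so what each siRNA was directed at is unclear from the labels.

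The siRNA strands are shown because the study compares them. They are given 5′ to 3′ as labelled, with the last 2 bases in capitals. Which strand of each duplex is listed is not given in the sources used here.
Control siRNA: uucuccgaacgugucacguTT
HOXD-AS1 siRNA 1: gaaagaaggaccaaaguaaUU
HOXD-AS1 siRNA 2: gcccuuucugaccugcuuaUU

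Interleukin-1 alpha and beta, encoded by IL1A and IL1B, are inflammatory cytokines that bind the receptor IL1R1, which then recruits the accessory chain IL1RAP. The adaptor MYD88 and the kinases IRAK4 and IRAK1 carry the signal towards NF-kB and MAP kinases. The pathway has several brakes. The IL1RN protein occupies IL1R1 without recruiting IL1RAP, IL1R2 is a decoy receptor that does not signal, and SIGIRR is an inhibitory receptor of the same family. IL1RN is known to give a secreted protein and intracellular forms from alternative first exons, and it is well known in monocytes, macrophages and stratified epithelia.

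IL1RN lies at the end of the interleukin-1 ligand cluster on chromosome 2, and RefSeq (GRCh38.p14) places 3 of its transcript starts in the promoter table used here. The second lies 9518 bases after the first, and a further one 109 bases after the second. The 250 bases before the first start and the 30 bases before the last are shown because IL1RN is the member with the widest difference between libraries. Capitals mark a match to one of 5 motifs searched on both strands, TATAAA, the AP-1 motif TGANTCA, the ETS core GAGGAA, the androgen receptor half-site AGAACA, and the NF-kB motif.
IL1RN first start, chr2:113117721-113117970, plus strand: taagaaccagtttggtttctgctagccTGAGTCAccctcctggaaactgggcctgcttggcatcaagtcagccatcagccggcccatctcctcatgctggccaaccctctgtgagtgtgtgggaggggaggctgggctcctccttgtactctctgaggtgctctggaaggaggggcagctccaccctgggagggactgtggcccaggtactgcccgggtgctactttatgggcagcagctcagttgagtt
IL1RN last start, chr2:113127568-113127597, plus strand: TATAAAccacaactctgggcccgcaatggc

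The window of the first start held 1 AP-1 match, 217 to 223 bases upstream. In the 250 bases before the last start the TATAAA match lay 25 to 30 bases upstream and overlapped a match on the opposite strand. The 250 bases before the second start held no match to these letters. Of all 35116 RefSeq windows of 250 bases, 6.57% held the AP-1 motif, 10.7% TATAAA, 23.6% the ETS core, 12.4% the androgen receptor half-site and 9.96% the NF-kB motif. None of the 3 IL1RN windows held an NF-kB, ETS or androgen receptor match, which says only that these letters were not found there. Among the other members, both IL1A windows held AP-1 matches. NF-kB matches were found in 1 of 2 windows of IL1R2 and in the single window of IRAK1. The ETS core was found in 3 of 4 windows of IL1R1, in 1 of 2 of IL1R2 and in the single MYD88 window. TATAAA was found in 1 window each of IL1A, IL1R1 and IL1R2, and the androgen receptor half-site in 1 of IL1R1. The arrays did not show which start was used.

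Each probe set was read on its own against the median of all values in the table, an intensity of 25.96. Of the 20 member probe sets, 9 were above the median on all 3 arrays, 11 were below it on all 3 and 0 were mixed. The 9 came from 6 genes, IL1RN with both of its probe sets, SIGIRR with all 3, and IL1R1, IL1RAP, MYD88 and IRAK1 with 1 each. The remaining 3 genes, IL1A, IL1B and IL1R2, were below the median with every probe set. The 11 low probe sets read between 5.59 and 22.0. For these no fold is given, since raising them to the median leaves no difference.

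**Figure D1:**
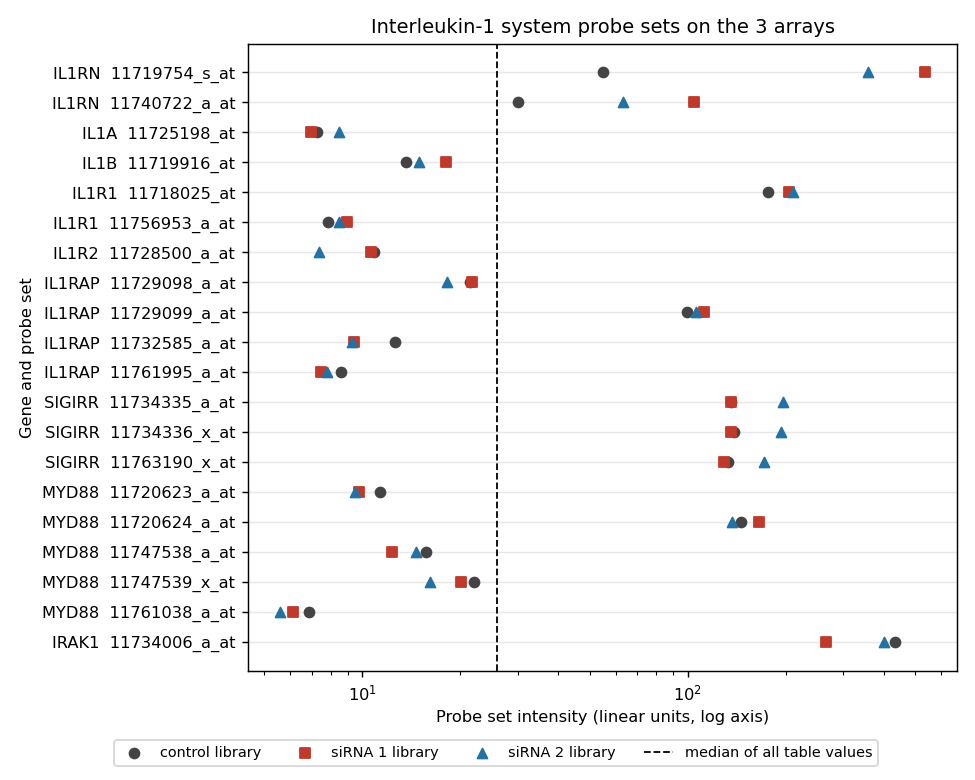
Intensity of each of the 20 member probe sets (rows) in the control, siRNA 1 and siRNA 2 libraries on a log axis, 1 point per array, with the median of all table values as a dashed line at 25.96. The 2 IL1RN rows have widely separated points, whereas all 3 points of IL1A, IL1B and IL1R2 lie left of the line. Rows hold different probes, so only points within a row can be compared.

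Of the natural brakes, IL1RN was much higher in both siRNA libraries. Its brighter probe set, 11719754_s_at, read 55.0 on the control array, 536 after siRNA 1 and 357 after siRNA 2. The other, 11740722_a_at, read 30.02, 104 and 63.1. Both probe sets thus put the libraries in the same order, with the control lowest and siRNA 1 highest. On the log2 scale the first differed from the control by 3.28 with siRNA 1 and 2.70 with siRNA 2, and the second by 1.80 and 1.07, or 3.47-fold and 2.10-fold. There were 23896 probe sets with 1 gene symbol and at least 1 array above the median, here called measured. Among these, values under the median were raised to it. The brighter IL1RN probe set then ranked 2 from the top with siRNA 1 and 4 with siRNA 2, and the dimmer 21 and 133. The size of the difference therefore depended on the probe set, and the control value of the dimmer one lay close to the median. The letters in the names bear on this, since the maker uses s for probe sets that can match transcripts of more than 1 gene and a for those matching several transcripts of 1 gene. The annotation gives both to IL1RN alone.

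The siRNA libraries also differed from each other at IL1RN. With siRNA 2 the brighter probe set was 1.501-fold lower than with siRNA 1 and the dimmer 1.65-fold lower, log2 differences of -0.59 and -0.72. Differences at least this low between the siRNA libraries were seen in 7.03% and 4.30% of all measured probe sets, so this gap is not rare in these arrays.

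SIGIRR, the inhibitory receptor, was higher with siRNA 2 and close to the control with siRNA 1. Probe set 11734335_a_at read 136 on the control array, 136 after siRNA 1 and 196 after siRNA 2. Probe set 11734336_x_at read 139, 136 and 193, and 11763190_x_at read 133, 129 and 171. In all 3 the siRNA 2 array was the highest, and the control and siRNA 1 arrays were nearly equal. The log2 differences from the control were 0.53, 0.47 and 0.37 with siRNA 2 and -0.00, -0.03 and -0.04 with siRNA 1. Probe sets of 1 gene can share sequence and are not independent readings. Differences this high with siRNA 2 were found in 5.24%, 6.64% and 10.7% of measured probe sets. The decoy receptor gene IL1R2 read 10.9, 10.6 and 7.35 and was below the median throughout.

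The agonist genes gave low readings in all libraries. IL1A read 7.27 on the control array, 6.97 after siRNA 1 and 8.47 after siRNA 2. IL1B read 13.6, 18.1 and 14.9. Neither gene crossed the median on any array, and the levels of 2 different probe sets cannot be set against each other, so the balance of antagonist to agonist transcripts cannot be read from these values.

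Transcripts of the signalling receptor pair were measured and differed little. IL1R1 read 176 on the control array, 205 after siRNA 1 and 210 after siRNA 2 in probe set 11718025_at, log2 differences of 0.22 and 0.26. The other IL1R1 probe set read 7.81, 8.94 and 8.48. IL1RAP read 99.6, 112 and 106 in probe set 11729099_a_at, differences of 0.17 and 0.09, while its 3 other probe sets were below the median. At least 17.97% of measured probe sets were as high or higher than each of these 4 differences. Probe sets of IL1RAP were designed on different transcript records, and the 3 low ones read 21.4, 12.6 and 8.61 in the control library.

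Among the signalling genes, IRAK1 was lower with siRNA 1 alone. This kinase gene read 434 on the control array, 266 after siRNA 1 and 402 after siRNA 2, so the control and siRNA 2 arrays lay together and the siRNA 1 array stood below them. It was 1.63-fold lower than the control with siRNA 1 and 1.08-fold lower with siRNA 2, log2 differences of -0.71 and -0.11. A difference at least as low as the first was seen in 3.75% of measured probe sets. IRAK1 had a single probe set, which leaves no second reading. The adaptor gene MYD88 read 146, 165 and 137 in probe set 11720624_a_at, differences of 0.18 and -0.09. The 4 other MYD88 probe sets were below the median, with the highest value, 22.0, in the control library.

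**Figure D2:**
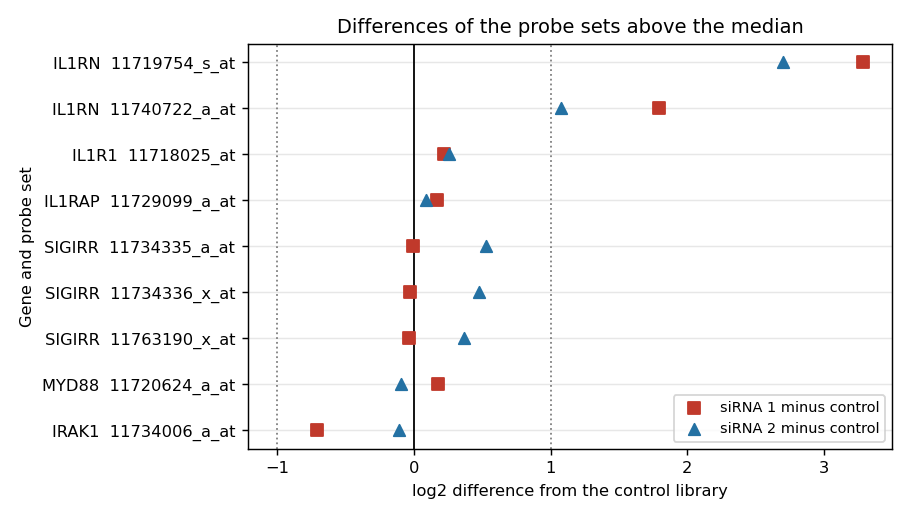
Log2 difference from the control library of the 9 member probe sets above the median (rows), with siRNA 1 as squares and siRNA 2 as triangles, 1 array each; dotted lines mark a 2-fold difference. Both IL1RN rows lie beyond 1 with each siRNA, the 3 SIGIRR rows are right of 0 with siRNA 2 only, and IRAK1 is left of 0 by 0.71 with siRNA 1.

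At the 2-fold threshold, a log2 difference of 1, the members past it were the 2 IL1RN probe sets, with each siRNA. Over all measured probe sets 2.68% were 2-fold or more from the control with siRNA 1 and 1.34% with siRNA 2, and 0.251% were 2-fold or more higher in both. Because IL1RN was chosen for this difference, nothing is read from its count. The 7 measured probe sets of the other genes ranged from -0.71 to 0.22 with siRNA 1 and from -0.11 to 0.53 with siRNA 2, and 0 of them reached 2-fold. Between the siRNA libraries, where 2.17% of measured probe sets were 2-fold apart, 0 of the 9 member probe sets were. The median of the 9 was 0.17 with siRNA 1 and 0.37 with siRNA 2, beside a median of 0 over all measured probe sets with each siRNA. The siRNA 2 median was the value of a SIGIRR probe set, a gene that supplied 3 of the 9.

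**Figure D3:**
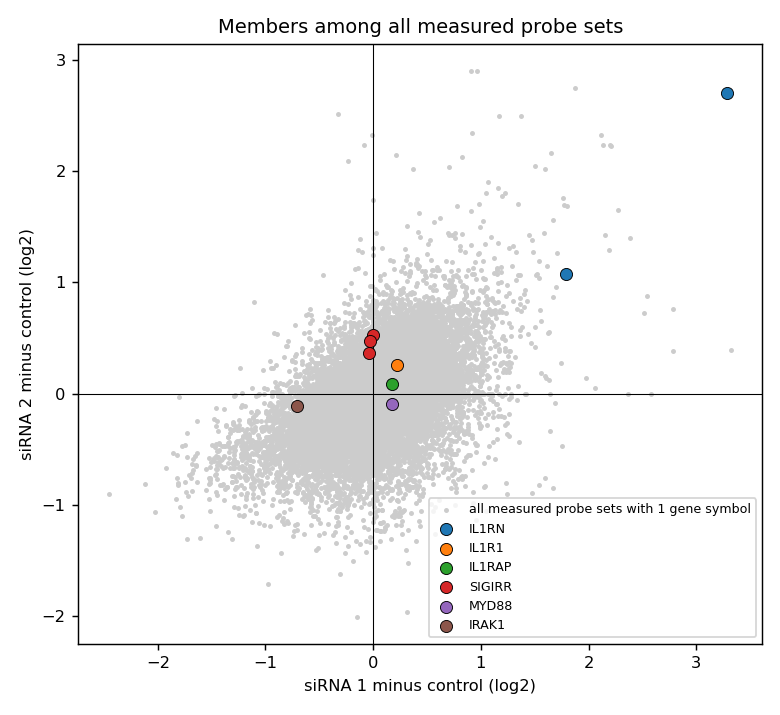
Log2 difference from the control with siRNA 1 (x axis) and siRNA 2 (y axis) for all 23896 measured probe sets in grey and the 9 member probe sets in colour, 1 array per library. The IL1RN points are at 3.28 and 2.70 and at 1.80 and 1.07, at the upper right edge, and the other members lie within the grey cloud; both axes share the control array, which by itself tilts the cloud.

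The position of IL1RN allowed a look at its neighbours, in the order RefSeq gives. The cluster holds 9 interleukin-1 family genes, IL1A, IL1B, IL37, IL36G, IL36A, IL36B, IL36RN, IL1F10 and IL1RN. IL1RN was above the median on all 3 arrays, IL36RN reached it on 1 array, and the other 7 were below it on all 3. IL36RN, the antagonist of the interleukin-36 receptor, read 19.1 on the control array, 26.2 after siRNA 1 and 18.9 after siRNA 2. IL36G, an interleukin-36 agonist gene, read 8.63, 25.1 and 19.4. It was picked for mention with its values known, as the low neighbour with the widest spread, and its order of libraries was that of IL1RN, but at readings that all lay below the median.

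The genes flanking the cluster did not share the IL1RN pattern. CKAP2L, a mitotic spindle protein gene beyond IL1A, read 65.3, 26.6 and 41.0, lower than the control by log2 differences of -1.29 and -0.67. PSD4, which encodes an exchange factor for ARF6 and is the next protein-coding gene after IL1RN, read 90.7, 90.8 and 122, differences of 0.00 and 0.42. The transcription factor gene PAX8 was below the median. In the receptor cluster, also on chromosome 2, IL1R1 was above the median and the other 5 family genes, IL1R2, IL1RL2, IL1RL1, IL18R1 and IL18RAP, were below it on every array.

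**Figure D4:**
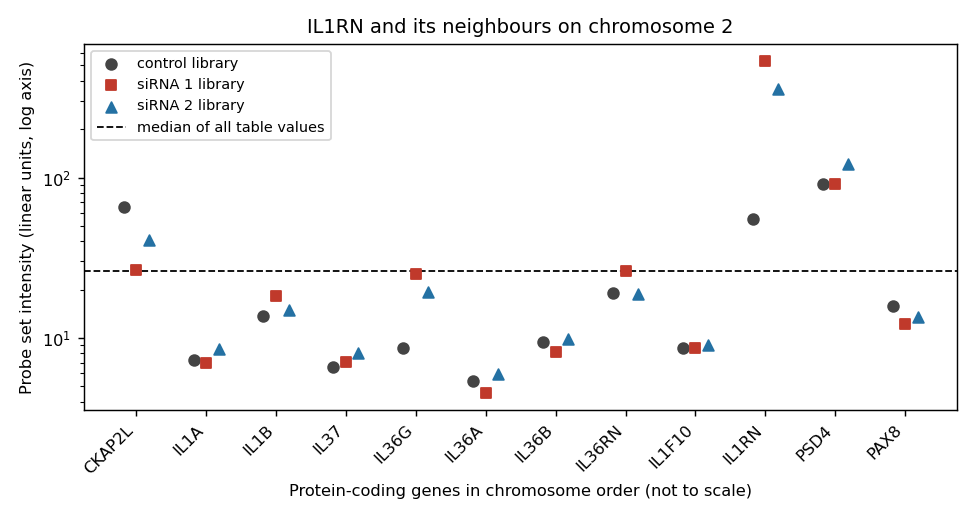
Probe set intensity (log axis) of IL1RN and 11 protein-coding neighbours in their order on chromosome 2 (x axis, not to scale), 1 point per library and the median of all table values as a dashed line. IL1RN has its control point at 55.0 and its siRNA points at 536 and 357, while the family genes from IL1A to IL1F10 stay near or under the line at 25.96. Different genes have different probes, so only points of 1 gene can be compared.

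The wider pathway was described with 6 lists of genes grouped by role, with 1 probe set per gene, the brightest. Of 114 listed genes 107 had a probe set and 57 were measured. With siRNA 1 as with siRNA 2, 0 of the 57 were 2-fold or more from the control, where 3.12% of all 11286 measured genes were with siRNA 1 and 1.39% with siRNA 2. In both libraries 25 were higher than the control (43.9%) and 12 lower (21.1%), beside 34.3% and 32.1% of all measured genes. A gene with a control value below the median was measured only through an siRNA array, so it could not count as lower. The filter thus fixed part of these counts, as it did over all measured genes. The list medians below stand beside medians of 0.00 with siRNA 1 and 0.01 with siRNA 2 over all measured genes.

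Few genes of the ligands and of their processing were measured. Of 9 other ligand and antagonist genes 2 were measured. IL18BP, which encodes a protein that binds and blocks interleukin-18, read 24.98 in the control library, just below the median, and 31.5 and 33.3 with the siRNAs, at least 0.28 and 0.36 higher on the log2 scale. Interleukin-18 itself (IL18) read between 2.57 and 2.76 and the alarmin gene IL33 between 4.11 and 5.09. Of 14 processing genes 4 were measured, with medians of 0.34 and 0.29. CASP1, the protease that matures interleukin-1 beta, read between 4.77 and 5.27, and the inflammasome genes PYCARD and NLRP3 were also below the median. CAPN1, a calpain subunit gene, differed by 0.35 and 0.55, the calpain gene CAPN2 by 0.34 and 0.13, and CASP8 by 0.44 with each siRNA from a control reading of 26.4, just above the median. CASP4 differed by -0.00 and 0.02.

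The signalling genes downstream of the receptor were mostly measured and went both ways. Of 35 listed, 33 had a probe set and 30 were measured. In both libraries 13 were higher and 6 lower, with medians of 0.10 with each siRNA. TRAF6, the ubiquitin ligase that acts after the IRAK kinases, read 32.4, 46.1 and 50.8, differences of 0.51 and 0.65. TAB2, an adaptor of the kinase TAK1, differed by 0.52 and 0.31. ECSIT, an adaptor protein gene, was lower by -0.89 and -0.38. MAP2K6, a kinase upstream of p38, read 155, 78.1 and 160, so it was lower with siRNA 1 (-0.99) and near the control with siRNA 2 (0.04), the same arrangement of arrays as for IRAK1.

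Of 35 listed genes that interleukin-1 is known to induce, 32 had a probe set and 17 were measured, with medians of 0.03 and 0.08. In both libraries 6 were higher and 4 lower. LIF, a cytokine gene, read 60.3 on the control array, 113 after siRNA 1 and 91.6 after siRNA 2, differences of 0.91 and 0.61. The transcription factor gene IRF1, which interferons induce too, read 30.1, 50.4 and 43.3. Both put the libraries in the order of IL1RN. In the other direction, the chemokine gene CCL20 differed by -0.45 and -0.40 and TNFAIP2 by -0.32 and -0.24. Of the better known targets, IL6, PTGS2 and ICAM1 were below the median on all arrays, while CXCL8, CXCL1 and TNFAIP3 were above it. CXCL8 read 90.9, 135 and 81.4, CXCL1 42.9, 35.6 and 47.4, and TNFAIP3 46.7, 50.1 and 61.4. Of 15 Toll-like receptors and related TIR proteins, 13 had a probe set and 4 were measured, 2 higher and 2 lower in both libraries. TLR5, the flagellin receptor gene, read 25.4, 40.4 and 42.5, at least 0.64 and 0.71 higher than the control, and SARM1 differed by -0.42 and -0.16. The adaptor gene TICAM1 differed by 0.07 and 0.42 and the adaptor gene TIRAP by -0.03 and -0.26.

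**Figure D5:**
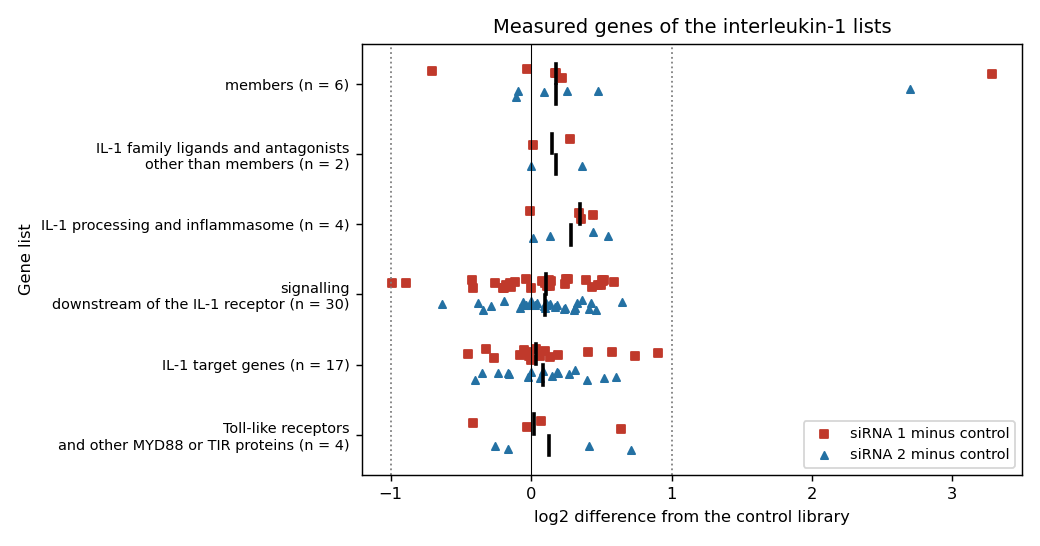
Log2 difference from the control library (x axis) of each measured gene in the member list and in 5 of the interleukin-1 pathway lists (rows), siRNA 1 as squares and siRNA 2 as triangles, with a black bar at each list's median; points are spread vertically only to separate them. The list of further receptor genes had 0 measured genes and is left out, and IL1RN at 3.28 and 2.70 is the only point beyond the dotted 2-fold lines.

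Likeness to IL1RN was measured as the distance between pairs of log2 differences, siRNA 1 and siRNA 2, over 3 arrays. IL1RN was represented by its brighter probe set alone. It covered the 11280 measured genes that were not members, each with its brightest probe set. The 5 nearest genes were GRIN3A, COL5A2, TMEFF2, TUBA1A and CAMK2N1, at log2 distances of 1.18, 1.23, 1.24, 1.59 and 1.70. None came within a log2 distance of 1 of that IL1RN probe set. All 5 had control values above the median. TUBA1A, an alpha-tubulin gene, read 174, 907 and 458, and CAMK2N1, an inhibitor of CaMKII, read 695, 3090 and 1870, both in the library order of IL1RN. The glutamate receptor gene GRIN3A read nearly equal with the siRNAs, 144 with siRNA 1 and 145 with siRNA 2. The collagen gene COL5A2 (277 and 320) and TMEFF2 (2998 and 3210) read highest with siRNA 2. Further probe sets of TMEFF2 (2.20 and 2.24) and TUBA1A (2.19 and 1.29) gave similar differences, and that of CAMK2N1 smaller ones (1.54 and 1.04). The 2 further COL5A2 probe sets, with control values below the median, differed by at least 0.91 and 1.34 and at least 1.26 and 1.31, against 2.12 and 2.32 in the one used, so its place depended on the probe set. GRIN3A had no other measured probe set. Distances from the dimmer IL1RN probe set, at 1.80 and 1.07, were not computed. CAMK2N1 (2.15 and 1.43) and TUBA1A (2.38 and 1.39) lie closer to the dimmer one. Which genes resemble IL1RN, and how closely, therefore depended on its probe set.

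The cell type markers were read beside these results. All 6 prostate luminal markers with a probe set were measured, with summed intensities of 13165, 13866 and 11477 in the control, siRNA 1 and siRNA 2 libraries. They went both ways. The kallikrein genes KLK3 and KLK2 differed from the control by -0.16 and -0.10 on the log2 scale with siRNA 1 and by -0.43 and -0.68 with siRNA 2. The protease gene TMPRSS2 differed by 0.53 and 0.30 and the luminal keratin gene KRT8 by 0.27 and 0.40. Of the leukocyte and macrophage markers 3 of 9 were measured, with list sums of 177, 166 and 206. CD68, a lysosomal protein gene that is not restricted to macrophages, read 66.2, 69.8 and 88.7 and was 0.42 higher than the control with siRNA 2. CSF1R, the macrophage growth factor receptor gene, read 38.01, 25.7 and 36.5, and the adaptor gene TYROBP 25.1, 25.2 and 29.8. PTPRC, the pan-leukocyte CD45 gene, was at 3.14 on every array, CD14 was at 7.39 or lower and LYZ at 4.10 or lower. Of squamous and basal keratinocyte markers 1 of 7 was measured, KRT14, at 47.8, 55.9 and 55.5, differences of 0.23 and 0.22. The siRNA arrays were nearly equal for this gene, and the list summed to 117, 127 and 132. Of endothelial and stromal markers 2 of 8 were measured, VWF at 32.4, 38.2 and 40.1 and COL1A1 at 33.99, 26.6 and 33.6, with list sums of 116, 110.02 and 128. Sums add up different probes, most of them below the median in the last 3 lists. The part of other cell types in the IL1RN values was not tested.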

How the data were processed

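Total RNA of 3 cultures with the cell line label LNCaP, 1 per siRNA, was amplified to biotin-tagged cRNA and hybridised to Affymetrix arrays, per the labels' protocols. The deposited values are probe set intensity on a linear scale, 1 column per array. GCOS 1.4 is named in the submitters' processing notes; background correction, summarisation and normalization are not given in the sources used here. Ranked log2 values matched between arrays to within 0.098, so a shift of most transcripts one way could not be seen.

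No rescaling was applied. Values under the median of the table (25.96) were raised to it, log2 was taken, and the control was subtracted. A probe set or gene counts as measured with at least 1 array above the median, and a difference from a value under it is a lower bound. The platform annotation supplied the symbols. It gave 1 symbol to 44988 probe sets, several to 1831 and none to 2569, and all 20 member symbols matched RefSeq by Entrez identifier. Python 3.11.15, numpy 2.4.6 and pandas 2.3.3 were used, and the code was tested on simulated data.

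The members and lists were chosen with earlier results of these data known. From each list, genes 2-fold from the control and the 2 highest and 2 lowest by mean difference are named. Readings of other key genes, most of them low, were added after their values were seen. The alternatives were another floor, scaling, threshold or choice of probe set. The number of arrays limits the precision.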

Additional observations from a re-analysis of the deposited data

Results flagged for a closer look

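Among the members and the list genes named by the rule, 6 probe sets lay on opposite sides of the control with the siRNAs. With 1 array per group these opposite directions were not tested. The difference of siRNA 2 from siRNA 1 on the log2 scale was 0.53, 0.50 and 0.41 in the 3 SIGIRR probe sets 11734335_a_at, 11734336_x_at and 11763190_x_at, whose siRNA 1 values were all within 0.04 of the control. It was -0.27 for MYD88 (11720624_a_at), 1.03 for MAP2K6 and 0.021 for CASP4, which was near the control with each siRNA.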

How the results depend on the processing

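No paired analysis was possible because each group holds 1 array. For IL1RN, of the alternatives run, only the highest floor moved the difference by over 1.5-fold. With the floor at the 75th percentile of all values, an intensity of 121, the brighter IL1RN probe set differed by at least 2.15 with siRNA 1 and 1.57 with siRNA 2, as its control value lies under that floor, the dimmer one was no longer measured, and the member probe sets past 2-fold were 1 with each siRNA. Under the other alternatives the brighter probe set stayed between 3.28 and 3.30 and between 2.70 and 2.71, and the dimmer between 1.78 and 1.81 and between 1.07 and 1.10. At 3-fold 1 member probe set was past the threshold with siRNA 2. The 0 pathway genes past 2-fold became 2 with siRNA 1 and 1 with siRNA 2 when the floor was lowered to the 25th percentile or dropped (IL36G and CCL2 with siRNA 1, IL36G with siRNA 2, without a floor), 1 with siRNA 1 after quantile normalization (MAP2K6, -1.01), and 6 and 4 at 1.5-fold. The shares of all measured genes under these other settings were not computed, so nothing is read from these counts. All 68 alternatives for the other members moved the value by less than 1.5-fold, and 1 changed a sign, that of a SIGIRR probe set with siRNA 1 near 0. Of 126 alternative list medians, 13 changed sign and 0 moved by 1.5-fold or more, so a sign can change within that limit. Without a floor the median of the processing genes with siRNA 1 went from 0.34 to -0.04. With only probe sets without a letter s, x or a in the name, the downstream signalling medians went from 0.10 with each siRNA to -0.04 and -0.05. The number of member probe sets above the median was 9 on each array under each alternative run.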

Other observations

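With values under the median raised to it, few probe sets differed from the control by more than the brighter IL1RN probe set. Those that did were singled out after their values were seen. With siRNA 1 it was 1 probe set of MMP7, the matrilysin protease gene, which read 23.1 on the control array, 260 after siRNA 1 and 34.0 after siRNA 2. Its control value was below the median of the table, so its difference of 3.33 is a lower bound, and the difference with siRNA 2 was at least 0.39. With siRNA 2 there were 3, 2 of CLEC7A and 1 of the histone gene H2BC5. CLEC7A, which encodes the beta-glucan receptor dectin-1, read 55.2, 103 and 412 in one and 54.7, 106 and 407 in the other. H2BC5 read 84.3, 309 and 566. On the log2 scale H2BC5 differed from the control by 1.87 with siRNA 1 and 2.75 with siRNA 2, and the CLEC7A probe sets by 0.91 and 0.96 with siRNA 1 and by 2.90 each with siRNA 2. These were not the brightest probe sets of their genes. With the brightest probe set of each gene and low values raised to the median, the highest differences over all measured genes were those of IL1RN. They were 3.28 with siRNA 1 and 2.70 with siRNA 2. Genes with a control value below the median enter this ranking with lower bounds, and it was not repeated without the floor.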
